A study of Mus musculus with 6 samples.

Results

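The 9 genes described here build the class I antigen presentation route of the mouse. They were taken by their names in the scanner files, B2m, H2-K1, H2-D1, Tap1, Tap2, Tapbp, Psmb8, Psmb9 and Psmb10, and were read by 16 probes on 34 spots, out of 20689 genes tested and 41174 probes in all. Gene expression was measured on 6 one-colour Agilent arrays, 3 of mouse embryonic stem cell lines (mES, derived from blastocysts before implantation) and 3 of epiblast stem cells (EpiSC, from the epiblast after implantation). The mES arrays were of line ESF122 (replicate 1), line ESF175/1 (replicate 2) and a line called ESF58/2 in one label and ESF58/1 in another (replicate 3). The EpiSC arrays were of line EpiSC-5 (replicate 1) and of line EpiSC-7 at passage 20 (replicate 2) and passage 25 (replicate 3), so that 2 lines gave 3 samples. All cultures stood on irradiated mouse embryonic fibroblasts in DMEM with KSR, with LIF for mES and FGF2 for EpiSC. The labels name no mouse strain, genotype change or interferon treatment.

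Class I molecules show peptides from inside the cell to cytotoxic T cells. The proteasome cuts proteins into peptides, and under interferon-gamma its catalytic subunits are exchanged for Psmb8, Psmb9 and Psmb10, which form the immunoproteasome. Tap1 and Tap2 form the transporter that carries peptides into the endoplasmic reticulum, tapasin (Tapbp) bridges the transporter and the empty class I molecule, and the heavy chains H2-K1 and H2-D1 reach the cell surface paired with beta-2-microglobulin (B2m). Pluripotent stem cells are known for low class I levels, whereas fibroblasts carry class I molecules.

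Signals are given as scaled signal, the processed signal of a probe divided by the array's 75th percentile, so that 1 is that percentile. They compare arrays for 1 probe, not probes with each other. Of the 9 genes, 3 passed the threshold of an adjusted p under 0.05 in limma, all higher in EpiSC (Psmb8, Tap2 and Psmb10), and 0 passed in the other direction. Over all genes tested 11.8% were called higher in EpiSC, 14.5% lower and 26.3% in either direction. The 3 EpiSC values lay above the 3 mES values for 6 of the 9 genes and below them for 0. Over all genes the groups were apart for 48.5%, 20% with EpiSC above and 28.6% with EpiSC below. Among the 9 genes 5 had an unadjusted p under 0.05. The median log2 fold change (EpiSC minus mES) was 0.85 for the 9 genes and -0.11 for all genes. In bulk RNA, fewer cells of a type and less RNA per cell cannot be told apart.

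**Figure D1:**
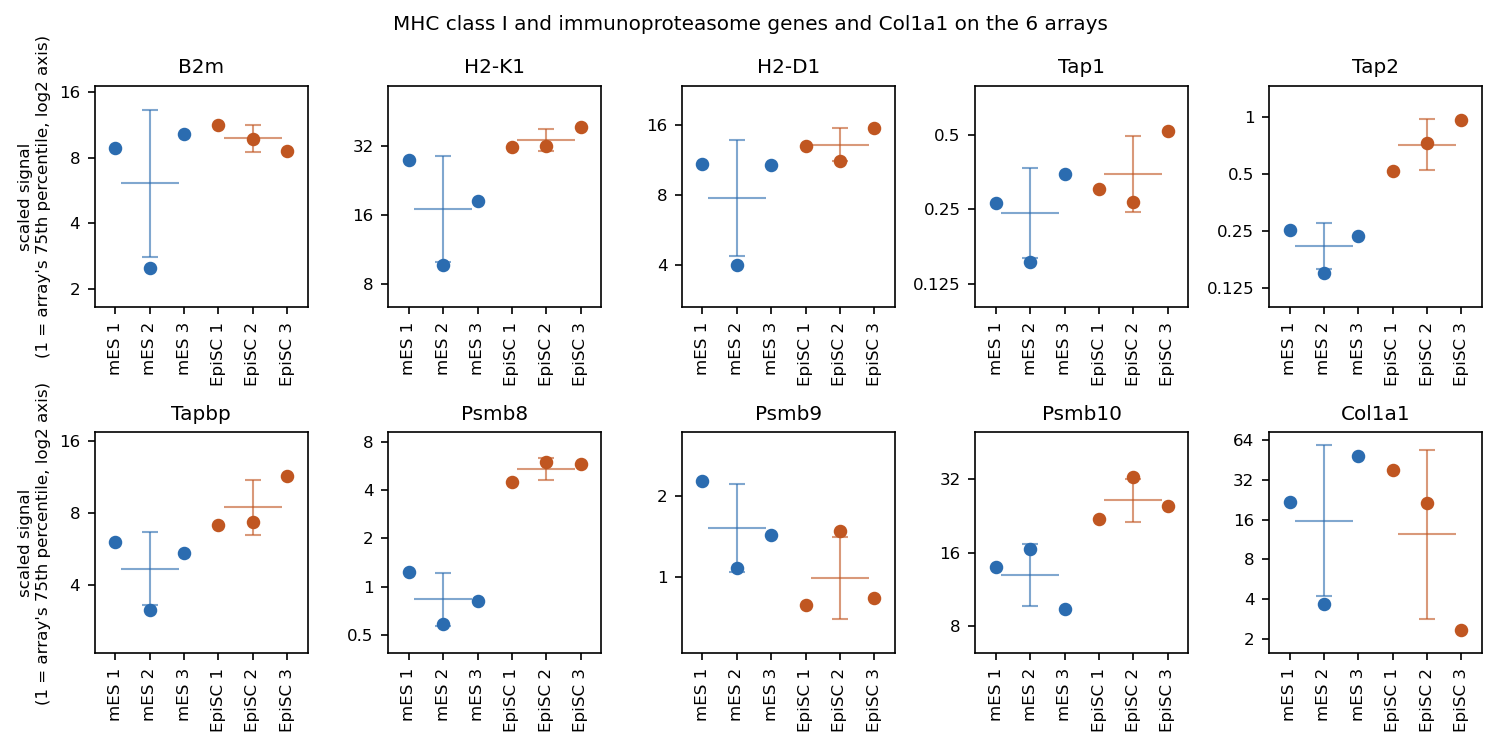
Scaled signal (1 is the array's 75th percentile, log2 axis) of the probe that stands for each of the 9 genes and for Col1a1 on each of the 6 arrays, mES in blue and EpiSC in orange, with the mean and SD of the log2 values as bars. Psmb8, Tap2 and Psmb10 lie higher on all EpiSC arrays, Psmb9 overlaps between the groups, and Col1a1 spreads widely within both.

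Psmb8, the immunoproteasome subunit that replaces Psmb5, showed the largest difference of the 9 genes. Its scaled signal was 1.24, 0.582 and 0.812 on mES replicates 1 to 3 and 4.48, 6.02 and 5.83 on EpiSC replicates 1 to 3. All EpiSC arrays lay far above all mES arrays, and the EpiSC values spanned 1.34-fold against 2.13-fold in mES. EpiSC held 6.45 times the mES signal (log2 fold change 2.69 ± 0.31, SE, n = 3 per group, limma adjusted p = 0.00257). A second probe of the same transcript gave 2.45 ± 0.31 (adjusted p = 0.00333). Psmb8 passed in all 6 fits with 1 array left out, with a log2 fold change of 2.43 to 2.97. With the 2 EpiSC-7 arrays averaged the log2 fold change was 2.62 (adjusted p = 0.0118). The gene lies at chr17:34198195-34201454, between Tap1 (chr17:34187556-34197225) and Tap2 (chr17:34204479-34216321). The 250 bases before its start, chr17:34197945-34198194, plus strand (GRCm38.p6, RefSeq), are shown because no other of the 9 genes moved as far, with a match to the gamma-activated site, the letters TTCNNNGAA, in capitals.
Psmb8: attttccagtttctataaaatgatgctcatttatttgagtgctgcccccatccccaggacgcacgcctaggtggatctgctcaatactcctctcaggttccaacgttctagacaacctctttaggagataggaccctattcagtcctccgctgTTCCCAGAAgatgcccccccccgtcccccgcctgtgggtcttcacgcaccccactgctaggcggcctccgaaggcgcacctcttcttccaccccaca

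Psmb10, which replaces Psmb7, had scaled signals of 14.1, 16.6 and 9.38 in mES and 22.1, 32.9 and 24.9 in EpiSC. The groups did not overlap, and the gene was 2.02-fold higher in EpiSC (1.02 ± 0.27, adjusted p = 0.0381). This call was close to the threshold. It was lost without mES replicate 1 (adjusted p = 0.0806), mES replicate 3 (0.0676), EpiSC replicate 1 (0.0668), EpiSC replicate 2 (0.0943) or EpiSC replicate 3 (0.0955), with the EpiSC-7 arrays averaged (0.0817), and on the arrays from slide position 4 alone (0.126). Of the trio, Psmb8 and Psmb9 lie on chromosome 17, and Psmb10 lies on chromosome 8, at chr8:105935728-105938392. Its upstream stretch, chr8:105938393-105938642, minus strand, is shown for contrast with that of Psmb8 and held 0 matches to the motifs searched.
Psmb10: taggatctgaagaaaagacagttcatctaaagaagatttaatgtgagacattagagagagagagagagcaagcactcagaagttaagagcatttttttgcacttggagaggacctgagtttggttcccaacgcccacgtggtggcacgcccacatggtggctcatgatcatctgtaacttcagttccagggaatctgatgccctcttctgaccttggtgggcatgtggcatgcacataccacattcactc

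Psmb9, which replaces Psmb6, did not follow the others. Its scaled signals were 2.27, 1.08 and 1.44 in mES and 0.791, 1.48 and 0.840 in EpiSC. EpiSC replicate 2 lay above mES replicates 2 and 3, so the groups overlapped, and the difference did not pass (-0.62 ± 0.36, adjusted p = 0.245, 95% interval -1.49 to 0.26). With slide as a random block Psmb9 was called lower (-0.66, adjusted p = 0.0443), and H2-K1 (0.78, adjusted p = 0.0431) and Tapbp (0.75, adjusted p = 0.0241) were called higher. That fit estimated a within-slide correlation of -0.68 and called 11785 of all genes, against 5436 in the main fit. A negative correlation lowers the standard error of a group difference when each slide holds 1 group. The interval of Psmb9 leaves room for a decrease, and its upper end lies below the lower end of that of Psmb8 (1.95 to 3.42). Within each array the log2 ratio of Psmb8 to Psmb9 was -0.87, -0.90 and -0.83 in mES and 2.50, 2.02 and 2.80 in EpiSC. The ratio was thus nearly constant among the mES lines, and it rose by 3.30 on the log2 scale, 9.88-fold. The exact permutation test gave p = 0.1 (two-sided), the smallest value that 3 against 3 arrays allow, and 0.15 adjusted over the 6 gene pairs compared. These pairs were chosen after the values had been seen.

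Psmb9 and Tap1 start back to back on chromosome 17, Psmb9 on the minus and Tap1 on the plus strand, with 225 bases between their starts, chr17:34187331-34187555. This stretch is shown, plus strand, because both genes share it. It held 0 matches to the 3 interferon and NF-kappaB motifs searched, and therefore no capitals.
Tap1-Psmb9: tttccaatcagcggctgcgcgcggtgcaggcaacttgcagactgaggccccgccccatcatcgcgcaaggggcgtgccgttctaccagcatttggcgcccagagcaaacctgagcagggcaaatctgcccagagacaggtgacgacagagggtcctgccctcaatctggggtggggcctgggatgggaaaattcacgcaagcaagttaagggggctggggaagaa
Scaled Tap1 was 0.265, 0.153 and 0.347 in mES and 0.301, 0.269 and 0.518 in EpiSC. The groups overlapped, and Tap1 did not pass (0.53 ± 0.38, adjusted p = 0.336). The ratio of Tap1 to Psmb9 was higher in EpiSC by 1.14 on the log2 scale, but mES replicate 3 lay above EpiSC replicate 2 (exact permutation p = 0.2, adjusted 0.24).

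Tap2, the partner of Tap1 in the peptide transporter, rose 3.44-fold (1.78 ± 0.31, adjusted p = 0.00953). Its scaled signal was 0.253, 0.150 and 0.235 in mES and 0.519, 0.726 and 0.956 in EpiSC. The lowest EpiSC array thus held more than the highest mES array, and Tap2 passed in all 6 fits with 1 array left out (1.55 to 2.01). Fitted on the 4 arrays from slide position 4 alone, it did not pass (1.66, adjusted p = 0.0565). With the EpiSC-7 arrays averaged Tap2 passed (1.67, adjusted p = 0.0284). With normexp background correction it also passed, but with its smallest difference among the alternatives (1.41, adjusted p = 0.00679). Tap1 and Tap2 were each read by 1 probe on 1 spot. The ratio of Tap2 to Tap1 was -0.07, -0.03 and -0.56 in mES and 0.78, 1.43 and 0.89 in EpiSC, a difference of 1.26 on the log2 scale (exact permutation p = 0.1, adjusted 0.15). No window for Tap2 was used here.

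**Figure D2:**
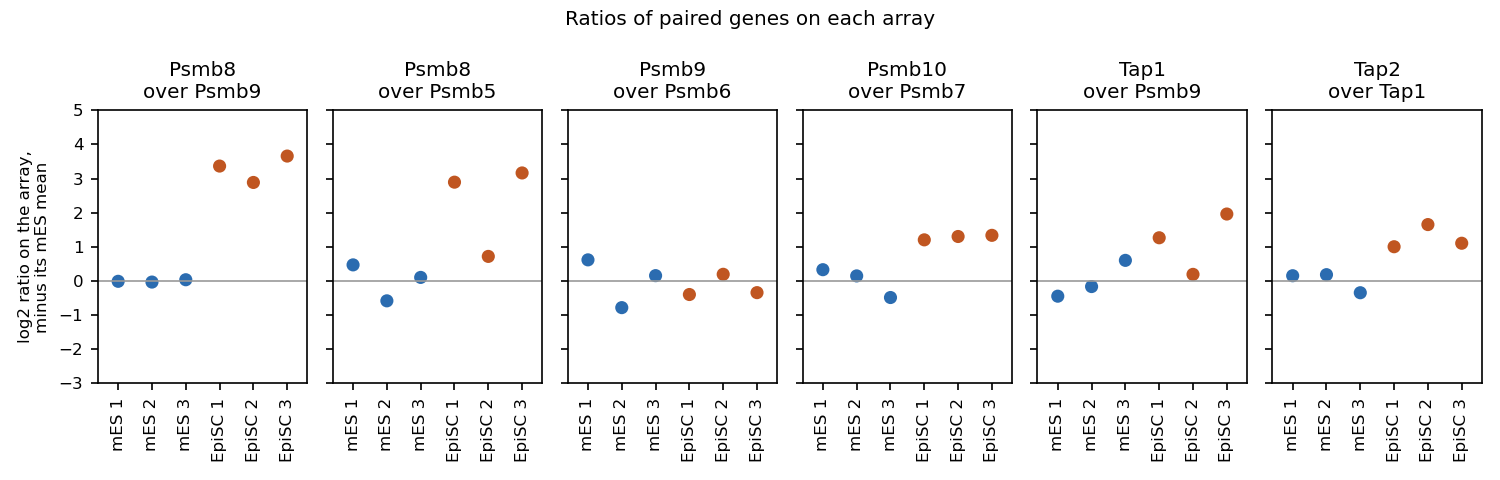
Log2 ratio of 2 genes on each array, minus the mean of that ratio over the mES arrays, for 6 gene pairs, mES in blue and EpiSC in orange. The ratio of Psmb8 to Psmb9 stays near 0 in mES and lies near 3 in EpiSC, the ratio of Psmb9 to Psmb6 overlaps between groups, and EpiSC replicate 2 is low in the ratio of Psmb8 to Psmb5.

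The constitutive subunits that these 3 replace did not pass. Psmb6 differed by -0.44 ± 0.20 on the log2 scale (adjusted p = 0.155) and Psmb7 by -0.27 ± 0.21 (adjusted p = 0.369). Psmb5 gave 0.43 ± 0.69 (adjusted p = 0.667), with 1 array far from the rest: its scaled signal was 27.3, 26.6 and 23.04 in mES and 18.4, 112 and 19.8 in EpiSC. Without EpiSC replicate 2 its sign turned (-0.42, adjusted p = 0.145). Relative to these partners, Psmb8 over Psmb5 was 4.79-fold and Psmb10 over Psmb7 2.43-fold higher in EpiSC (exact permutation p = 0.1 each, adjusted 0.15), while Psmb9 over Psmb6 differed by -0.18 on the log2 scale (exact permutation p = 0.8). With 3 against 3 arrays this test cannot give a p under 0.1, and the pairs were chosen after the values had been seen.

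The heavy chains were higher on every EpiSC array than on any mES array by their brightest probes, but the differences did not pass. H2-K1 had scaled signals of 27.8, 9.65 and 18.4 in mES and 31.6, 31.9 and 38.5 in EpiSC (0.99 ± 0.38, adjusted p = 0.102, 95% interval 0.07 to 1.92). The mES arrays spanned 2.88-fold and the EpiSC arrays 1.22-fold. Without mES replicate 1, whose value was the highest of its group, H2-K1 passed (1.34, adjusted p = 0.0444). Without mES replicate 2, whose value was the lowest, the difference was 0.58 (adjusted p = 0.166). H2-D1 read 10.8, 3.98 and 10.7 in mES and 13.0, 11.2 and 15.6 in EpiSC (0.77 ± 0.42, adjusted p = 0.211), and the difference was 0.29 without mES replicate 2 (adjusted p = 0.391). The class I heavy chains are near-identical copies and differ between mouse strains, and which of them, or which allele, a probe binds was not tested.

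B2m, the light chain common to all class I molecules, had scaled signals of 8.83, 2.49 and 10.3 in mES and 11.3, 9.76 and 8.56 in EpiSC. EpiSC replicate 3 lay below mES replicates 1 and 3, and B2m did not pass (0.69 ± 0.54, adjusted p = 0.369). Without mES replicate 2, the array with the low value, the difference was 0.04 (adjusted p = 0.912). Short stretches upstream of H2-K1 (chr17:34000439-34000468, minus strand) and B2m (chr2:122147544-122147573, plus strand) are shown because they hold matches, in capitals, to the NF-kappaB letters (GGG, any 2 bases, TT, any base, CC) and, in B2m, to the interferon response letters (GAAA, any 2 bases, GAAA). The H2-K1 stretch lies before the start used in the table but inside the span RefSeq gives the gene, chr17:33996012-34000619.
H2-K1: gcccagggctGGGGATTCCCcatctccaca
B2m: acatGAAACTGAAAatgGGAAAGTCCCttt

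On both strands of the 250 bases before a gene's start, with overlaps between motifs counted for each, the NF-kappaB letters matched in 3 of the 8 members with a window (B2m, H2-K1 and H2-D1) and in 4.11% of 32851 windows of all genes. The interferon response letters matched in 1 member (B2m) and in 2.98% of windows, the gamma-activated site in 1 (Psmb8) and in 7.02%. The CCAAT box matched in 6 members and in 33.8% of windows, and is not capitalised. Tap1 and Psmb9 are both among the 6 through the same CCAAT in the stretch they share. Of the 3 genes that rose, Psmb8 held 1 match in all and Psmb10 held 0. A match describes letters and is no evidence of a bound site, and these windows are short.

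Tapbp was read by 2 probes, each annotated to a different transcript variant. Whether either probe binds only its variant was not tested. The probe annotated to variant 1 read 6.05, 3.14 and 5.46 in mES and 7.17, 7.38 and 11.5 in EpiSC (0.85 ± 0.32, adjusted p = 0.0955), with no overlap. The probe annotated to variant 2 read 0.701 to 0.747 in mES and 0.693 to 0.925 in EpiSC (0.09 ± 0.18, adjusted p = 0.739 over all probes). The variant 2 probe thus varied little over the 6 arrays, while the variant 1 probe lay higher on each EpiSC array.

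**Figure D3:**
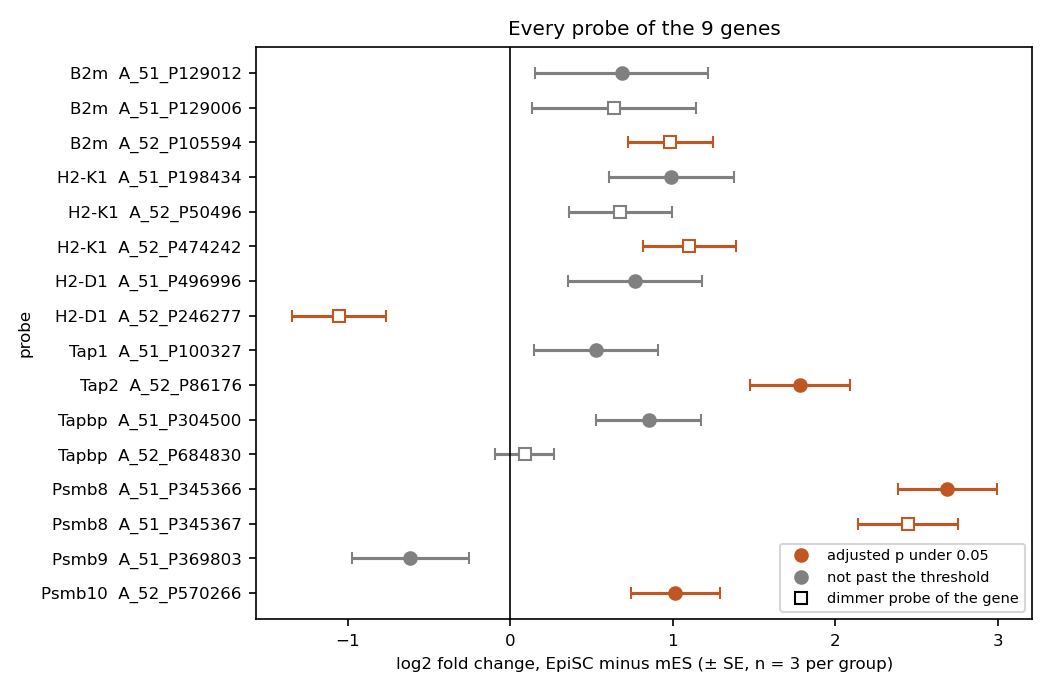
Log2 fold change (EpiSC minus mES) with its standard error for each of the 16 probes, orange where the adjusted p over all probes is under 0.05. Open squares are the dimmer probes of a gene. The probes of B2m, H2-K1 and Psmb8 lie on the same side of 0 within each gene, and those named H2-D1 on opposite sides.

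Fitted one by one, 7 of the 16 probes passed, 6 higher and 1 lower, against 12.2% and 13.9% of 29553 probes. Besides the probes of Psmb8, Tap2 and Psmb10, these were a dim further probe of B2m (0.98 ± 0.26, adjusted p = 0.0361), 1 of the 3 of H2-K1 (1.10 ± 0.28, adjusted p = 0.033) and the second probe named H2-D1 (-1.06 ± 0.29, adjusted p = 0.0397). The file describes the sequence behind the last as a thymus-leukemia antigen mRNA, a class I molecule of the T region, so that its decrease cannot be read as one of H2-D1. Averaging it with the H2-D1 probe turned the sign (-0.14). It read 0.129, 0.0765 and 0.0663 in mES and 0.0383, 0.0505 and 0.0375 in EpiSC. The cDNA behind the dim B2m probe is described as unclassifiable. Each of these 3 probes passed in 1 of 6 fits with 1 array left out, A_52_P105594 of B2m without mES replicate 1 and A_52_P474242 of H2-K1 and A_52_P246277, named H2-D1, without mES replicate 3 (highest adjusted p = 0.111, 0.107 and 0.12). With normexp background correction the difference of the B2m probe was 0.39 and did not pass. The 2 brighter B2m probes gave 0.69 and 0.64.

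All 6 cultures held feeder cells. Col1a1, the type I collagen chain of fibroblasts, had scaled signals of 21.96, 3.68 and 48.4 in mES and 38.0, 21.3 and 2.34 in EpiSC, which overlap widely (-0.35 ± 1.30, adjusted p = 0.859). Of 24 tested markers of embryonic fibroblasts 0 passed in limma (0 in either direction, 1 at an unadjusted p under 0.05). The summed scaled signal of the 23 of them measured on every array (Col1a2 had no usable spot on mES replicate 3) ran from 48.7 to 199 in mES and from 103 to 183 in EpiSC, lowest on mES replicate 2 and EpiSC replicate 3. Vim alone gave 28.34 of the sum on mES replicate 2 and 67.25 on EpiSC replicate 3. The mean of the centred log2 values of the 24 markers was 0.27, -1.51 and 1.09 in mES and 1.03, 0.35 and -1.18 in EpiSC. On mES replicate 2, 8 of the 9 genes had their lowest mES value, against 26.2% of all genes, and Psmb10 its highest. On EpiSC replicate 3, only B2m had its lowest EpiSC value and 5 of the 9 had their highest, against 43.2% and 27% of all genes. With the level of the fibroblast list as a covariate Psmb8 (2.68, adjusted p = 0.0061), Tap2 (1.78, adjusted p = 0.0189) and Psmb10 (1.04, adjusted p = 0.04) passed. Its part in the spread among the mES arrays was not tested.

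Of the markers of the labelled cell types, all 8 mES markers were lower and all 8 EpiSC markers higher in EpiSC, and of Pou5f1, Sox2 and Nanog, which both cell types use, 0 passed (1 at an unadjusted p under 0.05). Pou5f1 (-0.67, adjusted p = 0.218) and Sox2 (-0.93, adjusted p = 0.071) still lay lower on every EpiSC array than on any mES array, as did 28.6% of all genes. Nanog overlapped between the groups (-0.10). Of 15 tested markers of blood and antigen-presenting cells, 1 was called higher and 4 lower, against 11.8% and 14.5% of all genes. The summed scaled signal of these markers was 3.49 to 6.94 in mES and 2.20 to 4.72 in EpiSC, and Ptprc and H2-Aa were not well above background on every array of either group. Lyz2 alone gave 3.45 of the sum on mES replicate 3 and 2.77 on EpiSC replicate 1. It gave 0.283 on mES replicate 2 and 0.275 on EpiSC replicate 3. Cd68 (-2.95 ± 0.28, adjusted p = 0.00142), Laptm5 (-3.34 ± 0.43, adjusted p = 0.00383) and Cd52 (-1.60 ± 0.21, adjusted p = 0.00404) fell. The class II gene H2-Ab1 rose 5.16-fold (2.37 ± 0.34, adjusted p = 0.00511), from 0.104, 0.132 and 0.148 in mES to 0.550, 1.07 and 0.475 in EpiSC, while H2-Eb1 fell (-0.62 ± 0.16, adjusted p = 0.0308, passing in 2 of 6 fits with 1 array left out, with a highest adjusted p of 0.0986 without mES replicate 1) and the invariant chain gene Cd74 did not pass (-0.42 ± 0.50).

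Among other class I-type heavy chains, 4 of 19 tested were called higher and 0 lower, against 11.8% and 14.5% of all genes. The median log2 fold change was 0.75. H2-Q8 rose 5.35-fold (2.42 ± 0.33, adjusted p = 0.00458), from 0.378, 0.628 and 0.292 to 1.70, 2.78 and 2.24. H2-T10 rose 4.58-fold (adjusted p = 0.0143; 0.0506 without EpiSC replicate 3) and H2-T22 3.33-fold (adjusted p = 0.0203; 0.0546 without mES replicate 2). Both are nonclassical chains that gamma-delta T cells recognise. The fourth was Hfe, which acts in iron uptake (0.84 ± 0.17, adjusted p = 0.0153), but not with normexp (0.42, adjusted p = 0.0573) or as the mean of its probes (0.60, adjusted p = 0.0876). The same doubt about cross-binding applies to the H2 probes.

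In the list of peptide loading and trimming 5 of 14 were called higher and 0 lower, against 11.8% and 14.5% of all genes. The median log2 fold change was 0.16. Erap1, the aminopeptidase that trims peptides in the endoplasmic reticulum, rose 6.45-fold (2.69 ± 0.43, adjusted p = 0.00711). Its scaled signal was 0.511, 0.247 and 0.210 in mES and 1.22, 2.37 and 2.45 in EpiSC. Tapbpl, a tapasin relative that edits the peptides bound, rose 2.72-fold (1.44 ± 0.22, adjusted p = 0.0063), from 0.310, 0.293 and 0.197 to 0.690, 0.679 and 0.768. Both passed with any 1 array left out, and Erap1 lost its call on the arrays from slide position 4 alone (adjusted p = 0.0636). Derl1, of the degradation machinery of the endoplasmic reticulum (0.94 ± 0.21, adjusted p = 0.0213), the chaperone gene Hspa5 (0.85 ± 0.23, adjusted p = 0.0388) and Pdia3, part of the loading complex (0.65 ± 0.19, adjusted p = 0.0465), also rose, and Calr did not pass (0.29 ± 0.21, adjusted p = 0.331). Pdia3 passed only without EpiSC replicate 2 among the 6 fits with 1 array left out (highest adjusted p = 0.135, without EpiSC replicate 1), Hspa5 likewise (highest 0.118, without EpiSC replicate 3), and Derl1 in 2 of them, without mES replicate 1 or EpiSC replicate 2 (highest 0.0734). Of 8 proteasome activators and assembly factors 0 passed (1 at an unadjusted p under 0.05), among them Psme1, an activator subunit also induced by interferon-gamma (0.25 ± 0.26, adjusted p = 0.504). No probe carried the name Psme2.

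**Figure D4:**
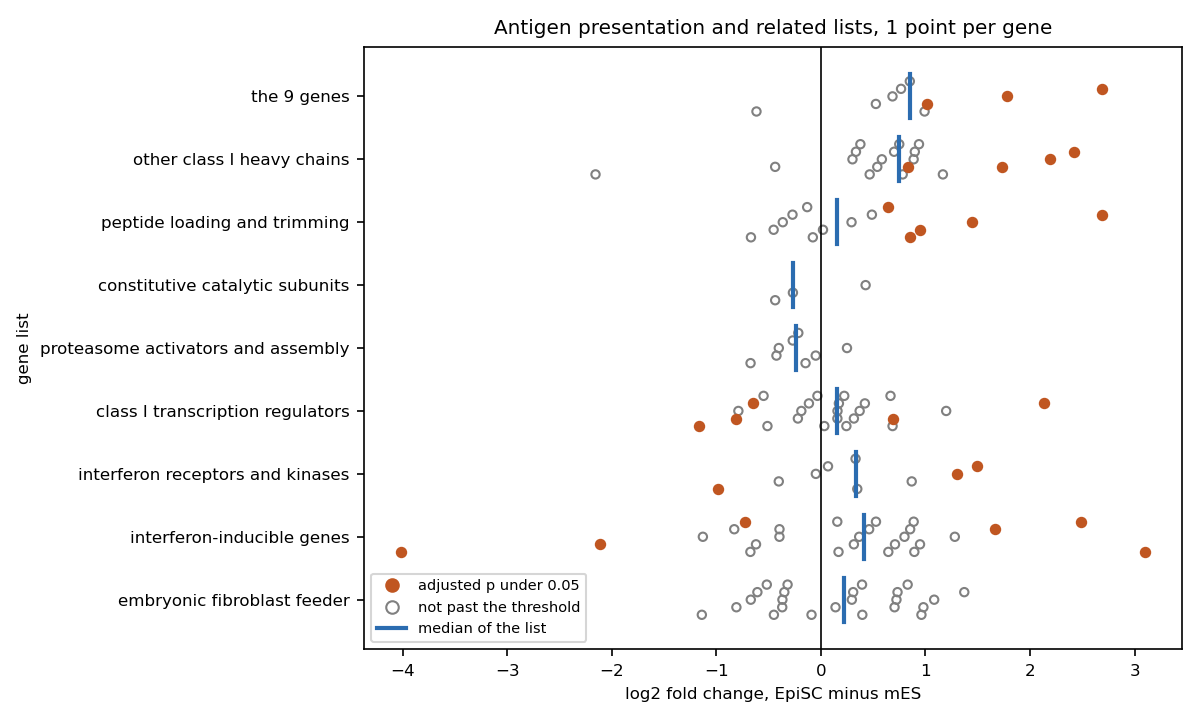
Log2 fold change (EpiSC minus mES) of every tested gene in 9 lists, 1 point per gene, orange where the adjusted p is under 0.05, with the list's median as a blue bar. Calls among the heavy chains and the peptide loading list lie on the higher side, and the regulators and interferon-inducible genes have calls on both.

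Of 24 regulators of the class I genes 2 were called higher and 3 lower, shares of the order of the 11.8% and 14.5% over all genes. Irf1, an interferon-induced factor that acts on these promoters, did not pass (0.42 ± 0.33, adjusted p = 0.364), and no probe carried the name Nlrc5, the class I transactivator. Stat2, needed for the type I interferon response, fell (-1.17 ± 0.19, adjusted p = 0.00772). Irf2 was at least 2.02-fold higher in EpiSC, being well above background on no mES array (adjusted p = 0.0314). That bound was set by the dimmest probes that cleared background there. With normexp background correction, which gave 0.23 on the log2 scale for Irf2, neither the call nor the size held (adjusted p = 0.396). Rela, an NF-kappaB subunit, was near the threshold (0.69 ± 0.20, adjusted p = 0.0454), and Nfyb (-0.81 ± 0.20, adjusted p = 0.0273) and the class II transactivator Ciita (-0.65 ± 0.17, adjusted p = 0.0322) fell. With 1 array left out Irf2 and Nfyb passed in 2 of 6 fits and Rela and Ciita in 1, with the highest adjusted p in each case without EpiSC replicate 1 (0.0882 for Irf2, 0.0895 for Nfyb, 0.133 for Rela and 0.102 for Ciita).

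Both chains of the interferon-gamma receptor rose. Ifngr1 was 2.82-fold higher (1.5 ± 0.31, adjusted p = 0.017), with 2.61, 1.37 and 1.45 in mES and 4.37, 4.23 and 6.33 in EpiSC. Ifngr2 was 2.46-fold higher (1.30 ± 0.25, adjusted p = 0.0131), with 0.537, 0.421 and 0.708 against 1.12, 1.56 and 1.37. Ifngr1 lost its call without mES replicate 2 (adjusted p = 0.0523) or EpiSC replicate 3 (0.0595), and Ifngr2 without EpiSC replicate 3 (0.0501). The kinase gene Tyk2 fell (-0.98 ± 0.21, adjusted p = 0.0194). Its call was lost without mES replicate 2 or any 1 EpiSC array, with an adjusted p of up to 0.061. Of the 9 genes for interferon receptors and kinases 2 were thus called higher and 1 lower, against 11.8% and 14.5% of all genes.

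Of 26 interferon-inducible genes 3 were called higher and 3 lower, shares of the order of the 11.8% and 14.5% over all genes, and the median was 0.41. The mean of their centred log2 values was -0.015, -0.65 and 0.36 in mES and -0.18, -0.30 and 0.79 in EpiSC. It was thus lowest on mES replicate 2 and highest on EpiSC replicate 3. Whether the 9 genes vary with this level was not tested. The guanylate-binding protein gene Gbp2 rose 8.56-fold (3.1 ± 0.35, adjusted p = 0.00257), from 0.375, 0.510 and 0.647 to 2.98, 3.89 and 6.68, and passed with any 1 array left out. Gbp3 (2.49 ± 0.67, adjusted p = 0.0373) passed only without mES replicate 3 (highest adjusted p = 0.102, without mES replicate 1), and Isg15 (1.66 ± 0.46, adjusted p = 0.0416) in 0 of those 6 fits (0.0591 to 0.106). Oasl1 fell 16.1-fold (-4.01 ± 0.66, adjusted p = 0.00811) and Ifi27 4.32-fold (-2.11 ± 0.25, adjusted p = 0.00278). Without mES replicate 3, whose value was the highest, Oasl1 gave -3.21 (adjusted p = 0.00182). The value of Ifi27 depended on the probe: the mean of its probes gave -1.37 (adjusted p = 0.0123), and under the gene names of the scanner files it was -0.48 and did not pass (adjusted p = 0.428). Adar, an RNA editing enzyme, fell by its brightest probe (-0.73 ± 0.18, adjusted p = 0.0298), but the mean of its probes gave 0.02 and the call held only without EpiSC replicate 3 among the fits with 1 array left out (highest adjusted p = 0.0906, without EpiSC replicate 1). Of 5 ligands of NK and T cell receptors or related surface proteins, Cd274, which encodes PD-L1, rose (1.47 ± 0.31, adjusted p = 0.0185) and the NKG2D ligand gene Ulbp1 fell (-1.69 ± 0.29, adjusted p = 0.00964). The call of Cd274 was lost without mES replicate 1 (adjusted p = 0.0503), EpiSC replicate 2 (0.0542) or EpiSC replicate 3 (0.0667), with the EpiSC-7 arrays averaged (0.054), and with normexp background correction, where the difference was 0.43 (0.0933). On the arrays from slide position 4 alone, H2-T10, H2-T22, Hfe, Derl1, Hspa5, Pdia3, Irf2, Rela, Stat2, Nfyb, Ciita, Ifngr1, Tyk2, Isg15, Adar, Cd274, Ulbp1 and H2-Eb1 did not pass either (adjusted p = 0.0528 to 0.187).

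Within EpiSC, the 2 passages of EpiSC-7 allow no test. The passage 20 array lay at slide position 4 and the passage 25 array at position 1, so passage and position cannot be told apart. From passage 20 to 25 the median difference of the 9 genes was 0.27 on the log2 scale, against -0.15 for all genes, whose 10th percentile was -0.83 and 90th 0.55. Tap1 was 1.93-fold and Tapbp 1.56-fold higher at passage 25, and Psmb9 differed by -0.82 on the log2 scale. Psmb8 differed by -0.05 between the passages, and by -0.40 between EpiSC-5 and the mean of both EpiSC-7 arrays. Col1a1 differed by -3.19 between the same 2 arrays.

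The profile of the 9 genes, the mean of their centred log2 values, was -0.06, -1.09 and -0.30 on the mES arrays and 0.30, 0.50 and 0.65 on the EpiSC arrays. The closest genes over the 6 arrays were Cd36 (Pearson's r = 0.996), Cd109 (0.995), Camk2d (0.990), Nodal (0.987) and Ktn1 (0.987), given as a description without a test over arrays of which 2 share a line. Cd36 changed sign with normexp background correction (-0.11). Within the 9, H2-K1 had r = 0.977 to the profile and Psmb9 r = -0.18. Each of the 9 is itself part of that mean, which tends to raise its r. Col1a1, which is not part of it, had r = 0.10.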

How the data were processed

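Total RNA of 6 cultures was labelled with Cy3 and hybridised to 1-colour arrays, per the labels. The deposited scanner files hold the intensity of each spot on a linear scale, made with Agilent Feature Extraction 9.1.3.1 with detrending on and local background subtraction off, per the file headers, and not normalized between arrays. The deposited value table holds the same processed intensity, rounded (largest difference 0.00716 on the log2 scale). It was used as an alternative.

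Control spots and outlier spots (12 to 24 per array) were left out, and 0 spots were saturated. Log2 signals of spots were averaged per probe and each array's 75th percentile subtracted. A probe entered if well above background on all arrays of at least 1 group. On each array 66.3% to 75.4% of 41174 probes were well above background. A gene was read by its brightest entering probe. Names came from RefSeq accessions (55.7% of probes, GRCm38.p6 table) or the scanner files. EpiSC was set against mES in limma 3.58.1, under R 4.3.3 (lmFit and eBayes, two-sided, Benjamini-Hochberg over 20689 genes or 29553 probes), which was tested on simulated data. Errors are limma's standard errors. The labels tell samples apart only by line and passage, so p-values cover only the spread between samples, which may be technical. Each slide held 1 group only, and slide, scan and growth factor cannot be told apart from the cell type. Each line also belonged to 1 group only and the labels name no strain. Genetic differences between the lines therefore cannot be told apart from the cell type either.

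The members and gene lists were chosen with earlier results of these data known. The named genes are all members, their constitutive counterparts, fixed pathway genes, up to 3 called genes per list and direction, and the 5 most alike profiles. Hspa5, Hfe, H2-Eb1, Cd74, Pou5f1, Sox2 and Nanog were named after their values were seen. A result for 1 gene of this rule is not reported here. Upstream sequences are from RefSeq (GRCm38.p6). No genome build for the probes was given in the sources used here.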

Additional observations from a re-analysis of the deposited data

How the results depend on the processing

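The count of the 9 genes that passed was 3, and 2 to 3 with 1 array left out. It was 6 with slide as random block (Psmb9 lower and 5 higher), with an estimated within-slide correlation of -0.68, which lowers the standard errors. With every probe by itself 6 gene names had a called probe, among them H2-D1 only through the probe described as a thymus-leukemia antigen and B2m only through the one described as unclassifiable. It was 1 when the fit was limited to the 4 arrays in slide position 4, a choice made after seeing the data. These were mES replicates 1 and 2 and EpiSC replicates 1 and 2. Psmb8 passed in all 20 alternatives (log2 fold change 2.31 to 2.97), Tap2 in 19 and Psmb10 in 13. Of the 16 probes 7 passed, 3 to 6 with 1 array left out, 3 with the EpiSC-7 arrays averaged, 11 with slide as random block and 2 at position 4. Over all genes 5436 passed, 2945 to 4957 with 1 array left out, 8712 with no filter on dim probes, 11785 with slide as random block, 7708 with every probe by itself (of 29553) and 2686 at position 4. Median scaling moved the median of all genes from -0.11 to -0.01. Col1a1 passed in 0 fits, and its log2 fold change ranged from -1.40 to 0.85 with 1 array left out (0.46 without mES replicate 3, 0.85 without EpiSC replicate 3), turned to 0.0559 with the EpiSC-7 arrays averaged and was 1.66 at position 4. Median scaling ended the calls of Pdia3 (adjusted p = 0.0503), Rela (0.0504), Ciita (0.0737), Adar (0.0867) and H2-Eb1 (0.06), and the fibroblast covariate those of Pdia3 (0.0736), Hspa5 (0.0606), Rela (0.0703), Ciita (0.0526), Gbp3 (0.0559), Isg15 (0.0593) and H2-Eb1 (0.0546). Signs also turned for H2-D1 with the mean of its probes (-0.14), Psmb5 without EpiSC replicate 2 (-0.421, range to 0.8796), Psme1 at position 4 (-0.01), Cd74 without EpiSC replicate 1 (0.0562, range from -0.9576), Adar with the mean of its probes (0.0239), Cd36 with normexp (-0.11) and the Tapbp variant 2 probe without EpiSC replicate 3 (-0.0447, range to 0.1632) or at position 4 (-0.0662). The cause of these changes was not tested, other than that the H2-D1 mean includes the probe described as a thymus-leukemia antigen. No paired analysis was possible because the labels number no replicates, and the numbers used here are names only. The number of arrays limits the precision.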
